A study of Mus musculus with 12 samples.

Results

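The chromatin accessibility of 10 genes that write, erase or act on methyl and other marks of DNA and histones was taken from a map of mouse blood formation: Dnmt3a, Dnmt1, Tet2, Asxl1, Ezh2, Kmt2a, Dot1l, Bmi1, Kdm6b and Setd2. Peaks were selected by the Gene Name column of the master peak-list, in which HOMER credits each peak to the gene with the nearest annotated transcription start site (TSS). This gave 71 of 84243 peaks. The map was made with ATAC-seq, which marks open chromatin by the cuts of a transposase, in 12 samples from wild-type C57BL/6 mice aged 8 to 12 weeks, with no treatment and no engineered allele. The 6 groups of 2 replicates were hematopoietic stem cells (HSCs), megakaryocyte progenitors (MkPs), erythroid progenitors (EPs), granulocyte/macrophages (GMs), B cells and T cells, sorted by surface antigens from bone marrow or thymus. HSCs were lineage-negative cells with cKit, Sca1 and Slamf1 and without Flk2. The master list combines the peaks of the 6 cell types after a filter to non-overlapping peaks, so a peak called in a cell type could be dropped. A missing peak is therefore not evidence of closed chromatin. The list records neither the cell type nor a signal. All statements below are therefore about the position and sequence of peaks pooled over the 6 cell types. No comparison between cell types, no test and no error between replicates could be obtained, and the identity of the sorted cells could not be checked against marker genes.

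These genes are grouped by the mark they handle. Methyl groups on cytosine are placed on new sites by Dnmt3a, copied after replication by Dnmt1 and oxidised as a step towards removal by Tet2. Ezh2 is the catalytic subunit of Polycomb repressive complex PRC2 and methylates H3K27, Kdm6b removes that mark, Bmi1 is a subunit of PRC1, and Asxl1 is a cofactor of the deubiquitinase Bap1, which reverses the PRC1 mark. Kmt2a (MLL1) methylates H3K4, Dot1l methylates H3K79 and Setd2 trimethylates H3K36. Several of them, such as DNMT3A, TET2 and ASXL1, are recurrently mutated in human myeloid leukaemia, KMT2A is a frequent partner in leukaemic translocations, and DOT1L is a dependency of leukaemias with such a translocation. The leukaemia association is background, and the peak list carries no information on it.

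The sequences below show what the peaks that carry the results look like. They were read from GRCm38.p6, the assembly called mm10, and each runs 5′ to 3′ along the coding strand of the member. Capitals mark exact matches, on either strand, to short motifs described further on. The start-site windows were chosen to contrast with the intronic windows, and the latter were picked after their motif content was seen. At the Asxl1 start site, chr2:153345582-153345881 on the plus strand, the capitals are SP/KLF matches (GGGCGG or its complement) in a peak that the list credits to a neighbouring non-coding gene.
Asxl1 start site: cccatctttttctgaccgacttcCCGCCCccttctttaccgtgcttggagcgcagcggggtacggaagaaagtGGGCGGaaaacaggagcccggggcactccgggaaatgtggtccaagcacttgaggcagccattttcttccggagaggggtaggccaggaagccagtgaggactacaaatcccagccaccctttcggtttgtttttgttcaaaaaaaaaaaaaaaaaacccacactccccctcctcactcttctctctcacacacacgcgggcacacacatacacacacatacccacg
The only peak named for Asxl1 lies in its intron 1. In its window chr2:153350870-153351068 on the plus strand, the capitals mark, in order, both E-boxes, GATA and PU.1.
Asxl1 intron 1: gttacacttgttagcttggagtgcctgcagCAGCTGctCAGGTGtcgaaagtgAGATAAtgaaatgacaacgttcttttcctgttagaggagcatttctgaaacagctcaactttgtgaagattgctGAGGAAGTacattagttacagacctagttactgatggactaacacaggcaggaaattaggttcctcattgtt
The internal start site of Dnmt3a, which gives the short form of the enzyme, is next to the window chr12:3891362-3891661 on the plus strand, with 1 SP/KLF match.
Dnmt3a internal start site: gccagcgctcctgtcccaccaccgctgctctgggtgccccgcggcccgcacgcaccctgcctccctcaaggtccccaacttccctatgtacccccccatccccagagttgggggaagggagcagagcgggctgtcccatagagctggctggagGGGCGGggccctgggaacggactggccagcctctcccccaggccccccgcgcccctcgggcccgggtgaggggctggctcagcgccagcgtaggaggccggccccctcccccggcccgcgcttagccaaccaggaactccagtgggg
The Dnmt1 start-site window, chr9:20952844-20953043 on the minus strand, holds overlapping NRF1 matches (GCATGCGC on both strands) and then 1 SP/KLF match.
Dnmt1 start site: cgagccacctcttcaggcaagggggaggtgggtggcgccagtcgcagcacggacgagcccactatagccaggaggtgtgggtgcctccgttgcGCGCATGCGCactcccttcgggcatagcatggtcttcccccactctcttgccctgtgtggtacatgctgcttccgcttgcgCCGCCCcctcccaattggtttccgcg
The Tet2 start-site window, chr3:133544252-133544451 on the minus strand, holds an SP/KLF match and then a YY1 match (AAGATGGC).
Tet2 start site: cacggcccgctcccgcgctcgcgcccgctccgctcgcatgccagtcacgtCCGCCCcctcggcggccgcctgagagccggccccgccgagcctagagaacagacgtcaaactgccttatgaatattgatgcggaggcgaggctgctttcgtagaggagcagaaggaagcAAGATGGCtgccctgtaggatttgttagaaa
An Ezh2 window in intron 3, chr6:47561534-47561803 on the minus strand, holds E-box, GATA, CEBP and CTCF matches.
Ezh2 intron: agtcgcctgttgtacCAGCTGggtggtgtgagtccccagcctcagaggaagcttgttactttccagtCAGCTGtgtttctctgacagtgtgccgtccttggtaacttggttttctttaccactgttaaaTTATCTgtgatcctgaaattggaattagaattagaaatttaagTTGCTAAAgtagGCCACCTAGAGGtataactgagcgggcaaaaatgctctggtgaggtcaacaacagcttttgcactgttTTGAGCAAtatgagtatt
A Dot1l window in intron 1, chr10:80757741-80757970 on the plus strand, comes from the member peak with the most kinds of motif, and its capitals mark AP-1, SP/KLF, CEBP, E-box and CTCF matches in that order.
Dot1l intron 1: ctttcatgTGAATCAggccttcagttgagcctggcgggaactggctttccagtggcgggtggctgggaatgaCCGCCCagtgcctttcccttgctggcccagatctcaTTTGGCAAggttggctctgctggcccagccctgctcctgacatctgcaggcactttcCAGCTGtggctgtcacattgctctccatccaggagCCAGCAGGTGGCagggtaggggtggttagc
The Asxl1, Dnmt3a, Dnmt1 and Tet2 start-site windows hold 14, 19, 15 and 21 CpGs, and their GC share is 54%, 74%, 65.5% and 63.5%. The Asxl1 intron 1, Ezh2 and Dot1l windows hold 2, 3 and 3 CpGs. The Dot1l intron is GC-rich at 60% all the same, so few CpGs and a low GC share did not always go together.

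The 10 genes held very unequal numbers of peaks. Tet2 had 20, Dnmt3a 14, Kdm6b 9, Setd2 7, Kmt2a 6, Ezh2 5, Dot1l 5, Dnmt1 2, Bmi1 2 and Asxl1 1. Tet2 and Dnmt3a together held 34 of the 71 peaks (47.9%). The median over the members was 5.5 peaks, beside a median of 3 and quartiles of 1 and 5 over the 19040 genes named in the list. Only 1.92% of those genes had as many peaks as Tet2 or more, and 5.06% as many as Dnmt3a. The maintenance enzyme Dnmt1 and the PRC1 subunit Bmi1, with 2 peaks each, were matched or exceeded by 74.6% of genes. The genes of cytosine methylation fell at both ends of the range.

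**Figure D1:**
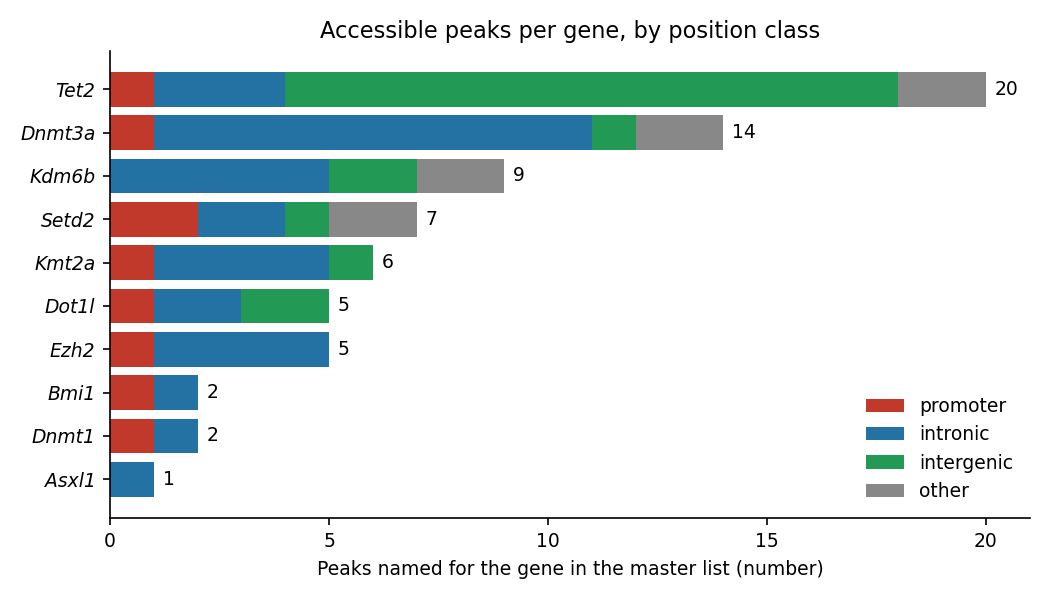
Number of peaks named for each gene in the master list (x axis), stacked by position class: promoter (no more than 500 bp from a TSS), intronic, intergenic (distal) and other (exon, gene end, non-coding, or promoter-annotated beyond 500 bp). Tet2, with 20 peaks, is mostly intergenic, and Asxl1 and Kdm6b have no promoter peak. Dnmt3a, with 14, is mostly intronic, but most of its intronic peaks lie in introns of the neighbouring gene Dtnb.

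Promoter peaks were centred no more than 500 bp from a TSS, the limit that the study set. Of the 71 peaks, 9 were promoter peaks (12.7%, 95% Wilson interval 6.81 to 22.4%) and 33 were intronic (46.5%, 35.4 to 58.0%). Another 21 were distal, meaning intergenic by HOMER (29.6%, 20.2 to 41.0%), and 8 fell in other classes (11.3%, 5.82 to 20.7%). The intervals cover counting error only and treat the 71 peaks as independent. The peaks are grouped within genes chosen for their known roles, and Tet2 and Dnmt3a hold 34 of them. The intervals do not account for this grouping. In the whole list the shares were 15.6%, 40.5%, 37.6% and 6.22%, each inside the members' interval. Because of the grouping, this does not test whether the members differ from the list. Tet2 supplied 14 of the 21 distal peaks (66.7%), Dot1l and Kdm6b 2 each, and Dnmt3a, Kmt2a and Setd2 1 each. By Gene Name, Dnmt1, Asxl1, Ezh2 and Bmi1 had no distal peak.

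The start sites were open at most of the members. By position, 9 of the 10 genes had a peak centred within 500 bp of a curated RefSeq TSS, beside 60.4% of all 21000 protein-coding genes. By Gene Name the count was 8, because Asxl1 dropped out. With 10 genes chosen for their known roles, this is a description. The centres of the promoter peaks lay 21 bp upstream of the TSS in Dot1l, 59 bp downstream in Tet2, 76 bp downstream in Dnmt1, 118 bp upstream in Ezh2, 158 bp upstream in Bmi1, 177 bp upstream in Kmt2a and 332 bp upstream of the internal TSS in Dnmt3a. Setd2, the H3K36 methylating enzyme, had a pair, 212 bp upstream and 400 bp downstream. Just beyond the limit of 500 bp were peaks of Kdm6b (524 bp upstream of HOMER's TSS), Dnmt3a (551 bp upstream), Tet2 (601 bp upstream) and Ezh2 (624 bp downstream).

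**Figure D2:**
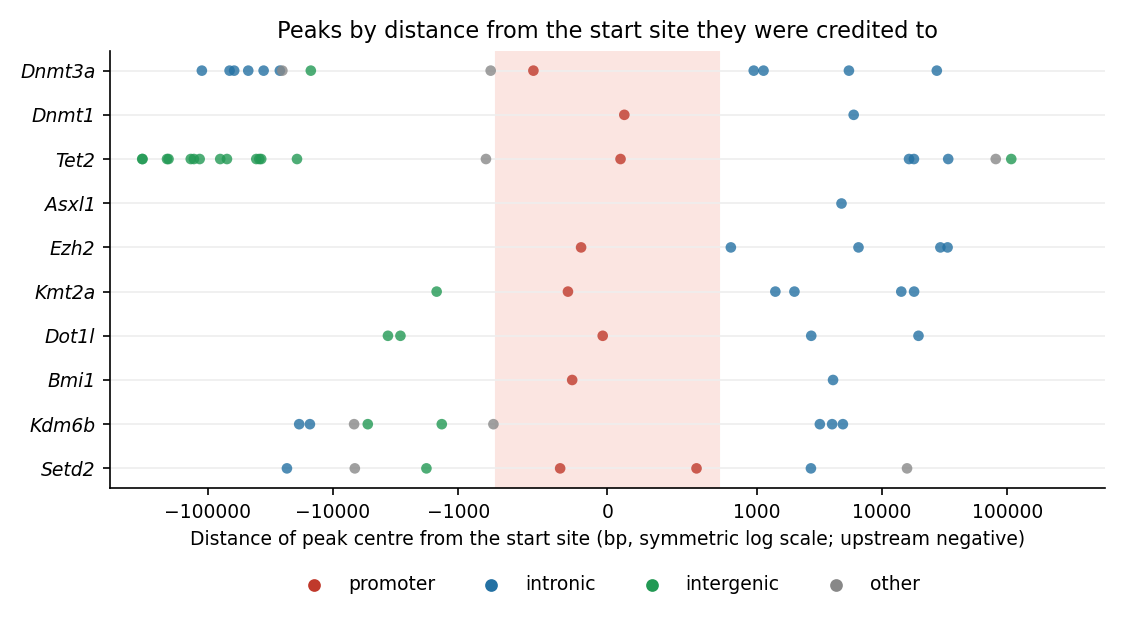
Signed distance of each of the 71 peak centres from the TSS that HOMER credited it to (x axis, bp, symmetric log scale, upstream negative), 1 line per gene, coloured by class, with the 500 bp promoter zone shaded. Tet2 peaks reach 332157 bp upstream, the peaks of Kmt2a, Dot1l and Bmi1 lie within 20 kb, and Asxl1 and Kdm6b have no point in the shaded zone.

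Tet2, on chromosome 3 (minus strand), had the widest spread. Its promoter peak, chr3:133544082-133544580, covered the TSS, and a companion peak was centred 601 bp upstream. Of its 14 distal peaks, 13 were upstream, from 19340 to 332157 bp away with a median of 115618 bp, and 7 were more than 100 kb away. With gaps of at most 5 kb, 3 of them formed a run, 37325, 38662 and 40853 bp upstream, and a pair lay 330215 and 332157 bp upstream. The others stood alone. The next upstream gene, Cxxc4, starts 692105 bp from the Tet2 TSS, and the next downstream gene, Ppa2, 234280 bp from it. Every Tet2 peak had Tet2 as its nearest protein-coding start site. This follows from the selection by Gene Name, since HOMER's Tet2 TSS is also the RefSeq Select TSS. Over the stretch of chromosome nearer to Tet2 than to any other protein-coding start site, 463 kb long, the density was 4.32 peaks per 100 kb, beside a median of 4.48 over all genes and 3.09 over the chromosomes. The median stretch over all genes was 49.5 kb, and stretches as long as that of Tet2 were not compared separately. Whether the high number of Tet2 peaks goes with the length of its stretch was not tested.

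Within Tet2 itself only 4 peaks were centred. Those in intron 1, 16471 and 18021 bp downstream of the TSS, lay 1550 bp apart, and another lay in intron 2 at 33818 bp. A peak at the gene's end lay 81007 bp downstream of the start, and the last Tet2 peak was 107699 bp downstream, beyond the gene. The distal Tet2 peaks were poor in GC, with a median of 42.2% and a range of 37.1 to 53.1%, beside 47.1% for all distal peaks of the list.

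Dnmt3a, on chromosome 12 (plus strand), carried its peaks in other places. Of the 14, 10 lay upstream of the TSS that they were credited to, and 7 of these were inside the body of the neighbouring gene Dtnb, from 25304 to 111047 bp upstream of Dnmt3a. They fell in introns 9, 12, 16 and 18 of Dtnb transcripts and in the last exon of a non-coding one. Their credit to Dnmt3a rests on distance alone. The list has only 1 intergenic Dnmt3a peak, 15003 bp upstream, and that peak was CpG-rich (GC 51.3%, observed/expected CpG 0.736).

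The start sites of the long forms of Dnmt3a were flanked and not covered. RefSeq places them 180 bp apart, and the GC share around the more upstream TSS was 82.0%. The nearest peak was centred 551 bp upstream of the more upstream TSS, and the next, in intron 1, 950 bp downstream of the other. Neither long-form TSS lay inside a peak. The internal TSS of the short form, 84764 bp further downstream, had the only Dnmt3a promoter peak, chr12:3891163-3891661. This TSS too lay outside the peak, whose centre was 332 bp upstream. That distance met the limit of 500 bp, while the 551 bp at the long-form TSS did not. The promoter peak was followed by intronic peaks 1137 and 5459 bp downstream of the internal TSS. These 3 peaks were nearer to the start of Pomc than to the RefSeq Select TSS of Dnmt3a, and were the only ones of the 71 for which the nearest such TSS was another gene's.

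A further 5 peaks inside Dnmt3a were absent from the 71. They lay in introns of Dnmt3a 45732, 49055, 54977, 61820 and 64210 bp downstream of its start and were credited to Dnmt3aos, an antisense non-coding gene within it. The body of Dnmt3a therefore held 10 peaks, of which 5 carried its name. This is 9.31 peaks per 100 kb, beside a median of 4.59 and quartiles of 0 and 9.92 over the 16180 protein-coding genes of at least 5 kb.

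Dnmt1, on chromosome 9 (minus strand), had a compact pattern. Its promoter peak, chr9:20952654-20953152, served the RefSeq Select TSS and a second annotated TSS 356 bp further in, whose nearest centre was 280 bp upstream. A more upstream TSS of another transcript had no peak within 6985 bp, and its surroundings were poor in CpG (observed/expected 0.113, GC 53.1%). The other Dnmt1 peak, in intron 1, was annotated as a B4 SINE repeat. A further peak inside Dnmt1, in intron 27 of 38, was credited to the microRNA gene Mir7081.

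The counts for Asxl1 depended on a naming rule. HOMER credited only 1 peak to this gene, in intron 1, 4680 bp downstream of the start it uses. The Asxl1 TSS was nevertheless inside a peak, chr2:153345393-153345891, centred 188 bp upstream. That peak was credited to 2500004C02Rik, a non-coding gene whose TSS is 20 bp from that of Asxl1 and which is read in the other direction. Its centre is 168 bp from that TSS. The peak had a GC share of 57.7%, an observed/expected CpG of 0.752 and 30 CpGs. In all, 8 peaks had Asxl1 as the nearest protein-coding start site: 5 were named for 2500004C02Rik, 2 for Nol4l and 1 for Asxl1. The paralogue Asxl2 was in the same position, with no peak of its name and a start-site peak 137 bp upstream credited to 1110002L01Rik. Of the 12685 protein-coding genes with a start-site peak, 1433 (11.3%) had no promoter peak under their own name and 816 (6.43%) had no peak under their own name at all.

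**Figure D3:**
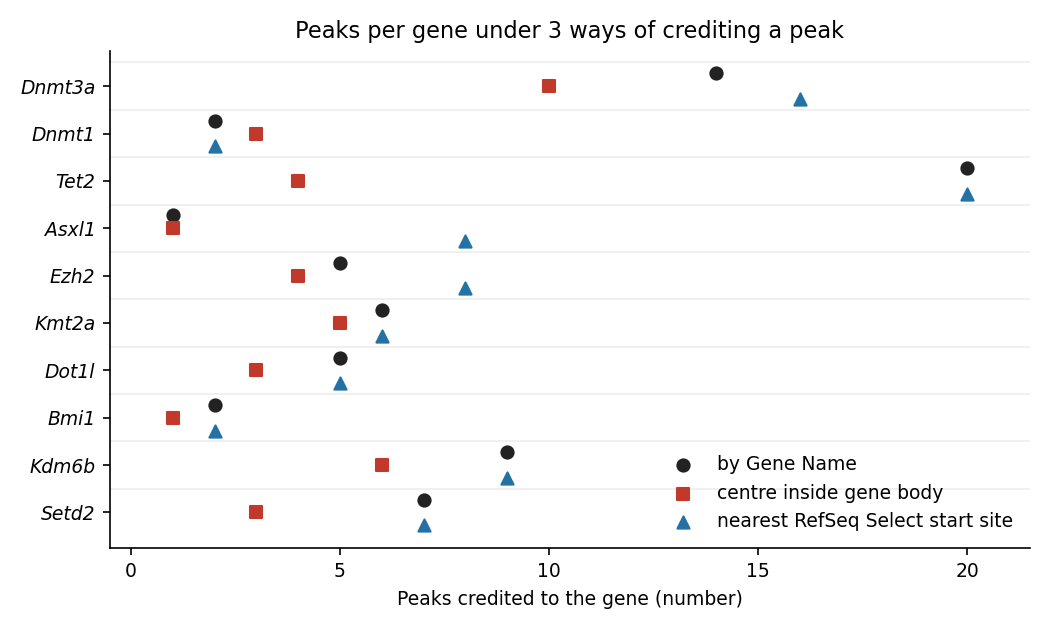
Number of peaks credited to each gene (x axis) by the Gene Name of the list, by a centre inside the RefSeq gene body, and by the nearest RefSeq Select start site of a protein-coding gene. Tet2 goes from 20 by name to 4 in its body, and Asxl1 from 1 by name to 8 by nearest start site.

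Among the Polycomb genes, Ezh2 on chromosome 6 (minus strand) had all 5 of its named peaks at or inside the gene. The promoter peak, chr6:47594899-47595397, was centred 118 bp upstream, and a GC-rich peak (69.5%) followed 624 bp downstream in intron 1. The others lay 6508 bp downstream in intron 1 and 29297 and 33437 bp downstream in intron 3, with GC shares of 39.1%, 42.9% and 42.9%. The intron 1 peak at 6508 bp was annotated as a B1 SINE and the intron 3 peak at 29297 bp as an ERVL LTR element. A further 3 peaks had Ezh2 as the nearest protein-coding start site but were named for Rn4.5s. Bmi1, on chromosome 2 (plus strand), had a promoter peak, chr2:18676611-18677109, with a GC share of 71.9%, and a second CpG-rich peak in intron 1, 4078 bp downstream, with 63.9%. The TSS of Bmi1 lies 4583 bp from that of its upstream neighbour Commd3.

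Kdm6b, which removes the mark that Ezh2 places, was the member without a start-site peak. The RefSeq TSS lies 2519 bp upstream of the one HOMER used, and the peak nearest to it was centred 1166 bp downstream of it. HOMER classed that peak as intergenic, while by RefSeq it lay in an intron of Kdm6b. Another peak was the nearest to HOMER's TSS, centred 524 bp upstream. By RefSeq it was 1995 bp downstream of the TSS, also in an intron. The sequence around the RefSeq TSS was GC-rich (67.3%) but poor in CpG, with an observed/expected value of 0.302. Kdm6b nonetheless had the densest gene body: 6 peaks in 17.7 kb, or 33.9 per 100 kb, a density that 1.11% of genes of at least 5 kb reached. Its 9 named peaks included 3 in intron 1, 3200, 4009 and 4886 bp downstream. A run of 7 peaks with gaps of at most 5 kb spanned 11661 bp, the longest run of any member. The 2 most upstream peaks lay in introns 73 and 77 of Dnah2, and a peak in intron 17 of Kdm6b was credited to Tmem88.

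The remaining histone methyltransferase genes are Kmt2a, Dot1l and Setd2. Of their peaks, 66.7%, 80% and 57.1% lay within 5 kb of the TSS, beside 40% for Ezh2 and 55.6% for Kdm6b. Kmt2a, on chromosome 9 (minus strand), had its promoter peak at chr9:44881202-44881700, an intergenic peak 1487 bp upstream, and 4 peaks in intron 1, from 1413 to 18073 bp downstream. Its promoter peak had the highest GC share of the 71, at 77.0%. A further peak, over exon 11 of 36 and 44671 bp downstream, was credited to Ttc36. Dot1l, on chromosome 10 (plus strand), had 4 of its 5 peaks in 6370 bp around the start, with its promoter peak at chr10:80754933-80755431, and 1 in intron 7. Its stretch of chromosome was short, and the density there was 17.7 peaks per 100 kb, the highest of the 10. Setd2, on chromosome 9 (plus strand), had 5 of its 7 peaks in a run of 9401 bp, including both promoter peaks. The others were in an intron of Kif9, 23265 bp upstream, and over exon 3 of Setd2, 15875 bp downstream.

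Across the members, 31 of the 71 peaks were centred in the body of their own gene, 10 in the body of another gene and 30 in no gene body. Of 34 member peaks that HOMER placed in an intron, 20 (58.8%) were in intron 1, beside 35.7% of all intron peaks of the list. These 20 were all in the gene they were named for, and the 9 in introns of Dtnb, Dnah2 and Kif9 were all in later introns. Selection by nearest TSS favours such a split, because a peak in another gene's intron 1 often takes that gene's name. The same rule left out peaks in later introns of Dnmt3a, Dnmt1, Dot1l and Kdm6b that were credited to other genes. Intron 1 is often the longest intron of a gene, and intron length was not accounted for. Peaks within 5 kb of the TSS made up 29 of the 71 (40.8%), beside 29.3% of the list. The remaining 42 were mostly those of Tet2 and Dnmt3a, of which 2 of 20 and 4 of 14 lay within 5 kb. With gaps of at most 5 kb, 46 of the 71 peaks fell into 16 runs and 25 stood alone. The counts of runs and of gene bodies have no value for the whole list beside them, so they describe the members only.

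Base composition divided the promoter peaks from most others. A peak was called CpG-rich with a GC share above 50% and an observed/expected CpG above 0.6. All 9 promoter peaks were, beside 74.8% of all promoter peaks of the list, and their median GC share was 71.9%, beside 63.3%. Of the 33 intronic peaks 4 were CpG-rich (12.1%, beside 2.75% of the list), and of the 21 distal peaks 2 (9.52%, beside 2.99%). The intronic ones were in Dnmt3a, Ezh2, Bmi1 and Kdm6b, 950, 624, 4078 and 3200 bp downstream of HOMER's TSS. The distal ones belonged to Dnmt3a and Kdm6b. Counts of 4 and 2 are too small to show a difference from the list. Repeats were annotated in 6 of the 71 peaks (8.45%), in Tet2, Ezh2, Dnmt1 and Kmt2a, beside 15.1% of the list.

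**Figure D4:**
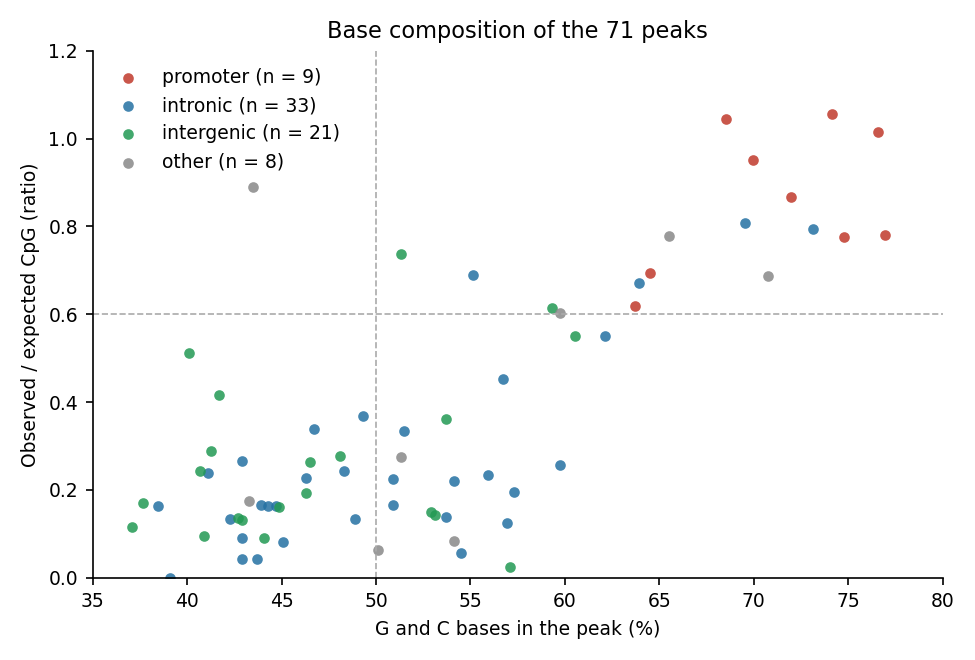
GC share (x axis, %) and observed/expected CpG ratio (y axis) of each of the 71 peaks, coloured by class, with dashed lines at the limits of 50% and 0.6. All 9 promoter peaks lie in the upper right, with GC shares of 63.7 to 77.0%, and most intronic and intergenic peaks lie below 0.6.

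A set of 14 short motifs of blood and promoter factors was searched as exact strings on both strands of each peak. A match describes the letters and is not a bound site. The promoter box SP/KLF (GGGCGG) was in all 9 promoter peaks, beside 75.7% of promoter peaks of the list, in 11 of 33 intronic peaks (33.3%, beside 13.4%) and in 1 of 21 distal peaks (4.76%, beside 13.6%). NRF1 (GCATGCGC) was in the Dnmt1 promoter peak alone, and in 5.77% of promoter peaks of the list. YY1 (AAGATGGC) was in the promoter peaks of Tet2 and Dot1l and in 1 distal Tet2 peak (3 of 71, 4.23%, beside 3.40% of the list). In the list it was in 6.34% of promoter peaks. Neither the ETS string CCGGAAGT nor the CRE string TGACGTCA was in any of the 71, beside 2.22% and 1.16% of the list. In promoter peaks of the list the ETS string was in 8.61%, so a set of 9 is too small to show a difference from it.

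Motifs of blood lineage factors were searched next. Of the 9 promoter peaks, that of Dnmt3a held CEBP and none held GATA, PU.1 or RUNX. In promoter peaks of the list the shares were also low, at 11.6%, 8.66%, 4.79% and 5.88%, so these counts do not set the members apart. The string AGATAA, bound by GATA factors of stem, erythroid and megakaryocyte cells, was in 13 of 71 peaks (18.3%, beside 24.1% of the list): 5 in Tet2, 2 each in Ezh2, Kdm6b and Setd2, and 1 each in Asxl1 and Kmt2a. PU.1 (GAGGAAGT), a myeloid and lymphoid factor, was in 7 (9.86%, beside 9.39%). RUNX (AACCACA), bound by Runx1, was in 4 (5.63%, beside 16.1%), of which 3 were in Tet2 and 1 in Ezh2. CEBP (TTGCNNAA), a granulocyte factor, was in 12 (16.9%, beside 19.3%), of which 5 were in Tet2. Of the 62 non-promoter peaks, 28 held at least 1 of these 4 motifs (45.2%, beside 57.2%), 7 held at least 2 (11.3%, beside 16.5%) and none held 3 (beside 2.17%). Dnmt3a had PU.1 and CEBP in 1 peak each, and neither GATA nor RUNX in any of its 14.

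Other motifs were AP-1 (TGANTCA), in 15 peaks (21.1%, beside 15.3%), CTCF (CCNNNAGGNGGC), in 6 (8.45%, beside 8.33%), TCF (CTTTGAT), in 4 (5.63%, beside 6.76%), and the E-boxes CAGCTG and CAGGTG, in 16 and 18 (22.5% and 25.4%, beside 29.8% and 32.6%). AP-1 was in 7 of 21 distal peaks (33.3%, beside 17.7%), and 6 of the 15 were in Tet2. The peak with the most kinds of motif was that of Dot1l intron 1, 2732 bp downstream of the start, with 6. The CTCF match there and its CAGGTG E-box share letters. The only named Asxl1 peak held 5 kinds, GATA, PU.1, both E-boxes and AP-1.

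**Figure D5:**
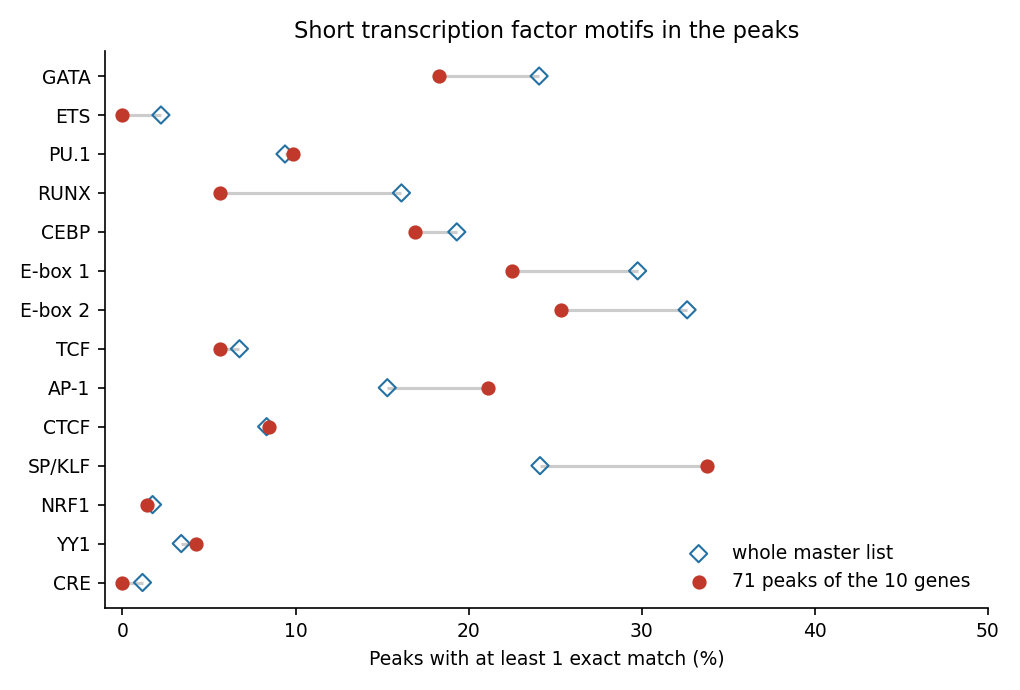
Share of peaks (x axis, %) with at least 1 exact match to each of 14 short motifs, in the 71 member peaks (filled circles) and in the whole list (open diamonds); E-box 1 and E-box 2 are the 2 E-box strings in the order given in the text. SP/KLF (33.8% and 24.1%) and AP-1 (21.1% and 15.3%) lie to the right of the list, and RUNX (5.63% and 16.1%) and GATA (18.3% and 24.1%) to the left.

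RefSeq promoter windows of 300 bases around a start were matched for 9 of the 10 members, all but Kdm6b, with 13 windows in all. Dnmt3a and Dnmt1 supplied multiple windows, so the 13 are not independent. SP/KLF was in 10 of the 13, including multiple Dnmt3a windows, beside 35.7% of 32851 windows. NRF1 was in 2 of the Dnmt1 windows, beside 2.71% of all. No member window held GATA, PU.1, RUNX or CEBP, which 11.2%, 3.20%, 5.27% and 10.8% of all windows held.

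The other genes of the same pathways gave a wider frame. Over 70 such genes the median was 3 peaks, with a range of 0 to 28, beside a median of 3 over all genes named in the list. A start-site peak was present at 60 of the 70, beside 60.4% of all 21000 protein-coding genes. For cytosine methylation it was 7 of 8 genes, for PRC2 8 of 9, for PRC1 15 of 16 and for the Bap1 complex 4 of 5. For paralogues of Kmt2a taken with partners of Kmt2a and Dot1l it was 12 of 16. For other histone lysine methyltransferases and demethylases it was 8 of 9, and for acetylation 6 of 7. Among paralogues, Tet1 and Tet3 had 8 and 7 peaks, beside 20 for Tet2. Dnmt3b had 3 and Dnmt3l 1, beside 14 for Dnmt3a. Ezh1 had 3, beside 5 for Ezh2, and Kdm6a 3, beside 9 for Kdm6b. Kmt2b, Kmt2c and Kmt2d had 1, 3 and 2, beside 6 for Kmt2a. Other paralogues had more peaks by Gene Name than the member. Asxl3 had 3, beside 1 for Asxl1, and Pcgf5 had 14, beside 2 for Bmi1. Pcgf1, Pcgf2, Pcgf3 and Pcgf6 had 1, 0, 2 and 1. By position, Asxl1 had a start-site peak, 1 peak in its body and 8 by nearest start site. Asxl3 had no start-site peak and 0 peaks in its body. Peaks centred in the gene body per 100 kb of gene gave another order. They were 8.46 for Tet1 and 9.57 for Tet3, beside 4.96 for Tet2, 14.1 for Ezh1, beside 6.18 for Ezh2, and 7.59 for Kmt2d, beside 6.42 for Kmt2a. The member was denser than Dnmt3b (5.22) and Dnmt3l (4.69) for Dnmt3a, than Kdm6a (1.70) for Kdm6b, and than Kmt2b (5.03) and Kmt2c (1.32) for Kmt2a. More peaks than the 20 of Tet2 were named for Aebp2 of PRC2, with 28, Rybp of PRC1, with 26, and Mllt3, a fusion partner of Kmt2a in leukaemia, with 25. Jarid2 of PRC2 and Aff3, another such fusion partner, had 20.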

How the data were processed

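ATAC-seq was performed by the authors on 12 samples. Reads were mapped to mm10 and peaks were called with the ENCODE ATAC-seq pipeline. The optimal list of each cell type by irreproducible discovery rate was taken. The lists were combined and filtered to non-overlapping peaks of 499 bp with chromVAR. The result was annotated with HOMER version 4.10.2. The deposited peak score was 0 for every peak and was not used. Per-sample values were not used here, so depth is unknown.

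The 10 genes and the pathway list were chosen with earlier results of these data known. Named genes were all members, the pathway list, and genes that hold member peaks or start near them. Peaks were classified from the deposited distance and annotation columns, which are positions and labels without normalization. TSSs, gene bodies and sequence came from RefSeq GRCm38.p6, with 1 RefSeq Select TSS per gene where stated. The scripts used Python 3.11.15, pandas 2.3.3 and pysam 0.24.0, and the motif search and position rules were tested on simulated data. Where a member's nearest peak bore another gene's name, both names are given.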

Additional observations from a re-analysis of the deposited data

How the results depend on the processing

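No paired analysis was possible because no result comes from a test and the list has no column per replicate. Of 28 alternatives, 19 stayed within 1.5 times the value given above and 9 did not. The count of 71 peaks was 40 when a centre had to lie inside the gene body and 142 by the basal plus extension rule with a limit of 1 Mb. The median per gene was 3.5 peaks in the gene body. Promoter peaks numbered 3 within 100 bp of a TSS and 14 within 1000 bp, and 3 members had a promoter peak within 100 bp. CpG island peaks were 4 by the HOMER annotation and 18 by base composition. The 123 pairs of peak and motif became 69 in the central 200 bp and 650 with 1 mismatch. Wider or narrower limits give more or fewer peaks and matches by construction. Of all promoter peaks of the list, 3.34% had the CpG island annotation and 74.8% were CpG-rich by base composition. For the CpG island count the cause was not tested. Counting a start-site peak whatever its name, adding the peaks named for 2500004C02Rik and Dnmt3aos, and the density per stretch of chromosome were chosen after seeing the data. The list holds no depth, no cell type and no replicate, so no count of peaks here can be read as a level of accessibility.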
